A study of Mus musculus with 11 samples.

Results

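The 7 genes in question, Scn1a, Scn2a1 (the count tables' name for Scn2a), Scn3a, Scn8a, Scn2b, Scn3b and Scn4b, encode pore and beta subunits of the sodium channels of brain neurons. They were taken by symbol and not for how they changed, though with earlier results of these data known. All 7 were found among 32531 genes in every one of 11 libraries, and all 7 passed the filter on low counts. All libraries, controls included, are from adult Glt25d2-EGFP/Rpl10a mice, founder line DU9. Their transgene puts an EGFP tag on ribosomes of cells that use the Glt25d2 (today Colgalt2) promoter, which in cortex are mainly layer 5 pyramidal neurons. TRAP-seq, translating ribosome affinity purification with sequencing, pulls down the tagged ribosomes and reads the RNA they carry, which is the immunopurified (IP) RNA. There were 3 IP libraries from cocaine self-administration, 3 from yoked controls and 3 from saline self-administration, all from a short-access intravenous experiment. A single unbound library holds RNA left after the pull-down in the cocaine group, and a single input library holds RNA from before it in the saline group. The sources used here do not say what the yoked mice received, their sex, or whether a library is 1 animal or a pool, so p-values measure only the spread between libraries. The sample labels name cerebral cortex, whereas the extraction protocol names striatum.

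Sodium channels open when a neuron is depolarised and carry the inward current of the action potential. The pore subunit forms the channel alone, and beta subunits, each with a single membrane span, alter its gating, its surface level and its anchoring. In cortical pyramidal neurons the channels are packed at the axon initial segment, where spikes start, and at the nodes of Ranvier. Scn2a and Scn8a are the main pore genes of adult pyramidal axons, Scn1a is best known from parvalbumin interneurons but is also used by pyramidal cells, and Scn3a is used mostly before birth. The beta subunits of Scn2b and Scn4b are joined to the pore by a disulfide bond, while that of Scn3b binds without one.

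The pore genes resemble each other so closely that short reads can fit more than one of them. In the longest coding transcripts of GENCODE M21 (GRCm38, the assembly of mm10) the coding sequences of the pore genes shared 73.8% to 83.6% of aligned bases and those of the beta genes 51.4% to 55.7%. Of all 50-base windows of these transcripts, 8.53% in Scn3a, 7.87% in Scn2a1 and 5.48% in Scn1a occurred also in another gene. The share was 0.053% in Scn8a, 0.803% in Scn2b and 0% in Scn3b and Scn4b. Reads from a shared window are lost or split where the counting drops reads with several positions, so the levels of Scn1a, Scn2a1 and Scn3a are the less certain ones.

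Scn3a (chr2:65457118-65567627, minus strand), Scn2a (chr2:65620771-65767447, plus strand) and Scn1a (chr2:66270778-66440840, minus strand) lie in one cluster on chromosome 2. Scn8a lies alone on chromosome 15 (chr15:100869858-101045938, plus strand). Scn2b (chr9:45117782-45130070) and Scn4b (chr9:45138395-45154152) are close neighbours on the plus strand of chromosome 9, and Scn3b (chr9:40269217-40291618, plus strand) has lower coordinates on the same chromosome. A count sums reads over a gene's exons, coding and UTR together, and does not say which exon a read came from.

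The libraries with replicate number 1 stood apart from those with numbers 2 and 3 in all 3 treatments, so the treatment comparisons are also given within each number and without number 1. Summed over 10 markers of layer 5 pyramidal tract neurons, levels ran from 933.6 to 1125 CPM (counts per gene scaled for library size, with TMM factors over all 11 libraries) in the 3 IP libraries numbered 1 and from 531.6 to 696 CPM in the 6 numbered 2 or 3. The 8 astrocyte markers summed to 565 to 1021 CPM against 1829 to 2575 CPM, the 8 oligodendrocyte markers to 575 to 726 CPM against 1334 to 1770 CPM, and the 10 interneuron markers to 558.5 to 721 CPM against 857 to 1094 CPM. The 6 nuclear noncoding RNAs, which are not translated, summed to 209 to 419 CPM against 2408 to 7418 CPM. The 10 striatal projection neuron markers summed to 359 to 431 CPM in number 1 and 558 to 670 CPM in numbers 2 and 3, and none of them was at 0 in any library. In the fit by number, 7 of 10 layer 5 markers were above 0 in number 1 and 3 below, down to -0.99 on the log2 scale. Below 0 were 7 of 8 astrocyte, 9 of 10 interneuron and 8 of 8 oligodendrocyte markers, and 49.2% of all genes. The 8 endothelial and mural markers did not follow the glial ones, with 5 above 0 and 3 below (median 0.52). Their sums overlapped, at 15.97 to 25.6 CPM against 16.4 to 22.9 CPM. Across these lists the only marker at 0 in some library was Folr1, of the choroid plexus. The input library held 564.5 CPM of the layer 5, 2093 of the astrocyte, 1529 of the oligodendrocyte and 888 of the interneuron markers. It held 5218 CPM of the nuclear noncoding RNAs. Each of these input sums lay within the range of the IP libraries numbered 2 or 3 and outside that of number 1. By these sums, the libraries numbered 2 and 3 were not set apart from unpurified RNA. Fewer cells of a type and less RNA per cell cannot be told apart in such data. Libraries held 20926712 to 53862653 gene counts, the lowest in the unbound fraction. Each IP group was sequenced on a lane of its own, so lane and treatment cannot be told apart.

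Per kilobase of exon, the beta gene Scn2b stood highest and Scn3a lowest of the 7 genes. Over the 9 IP libraries the mean level was 53.5 ± 8.16 CPM per kb for Scn2b, 36.9 ± 5.32 for Scn2a1, 23.2 ± 3.54 for Scn8a and 18.3 ± 4.69 for Scn1a (SD, n = 9). It was 17.4 ± 1.33 CPM per kb for Scn3b, 12.04 ± 2.02 for Scn4b and 2.73 ± 0.433 for Scn3a. The order of most neighbours was the same in most libraries: Scn2b was above Scn2a1 in 10 of 11 libraries, the exception being the unbound library, and Scn2a1 was above Scn8a in 11 of 11. Scn8a was above Scn1a in 9 of 11 libraries. Scn1a and Scn3b could not be ordered, with Scn1a above Scn3b in 4 of 11 libraries. Scn3b was above Scn4b and Scn4b above Scn3a in 11 of 11. Counts per library were large for every gene, from 709 to 1279 for Scn3a up to 7875 to 20548 for Scn2a1, so the spread between libraries, not counting error, set the precision.

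**Figure D1:**
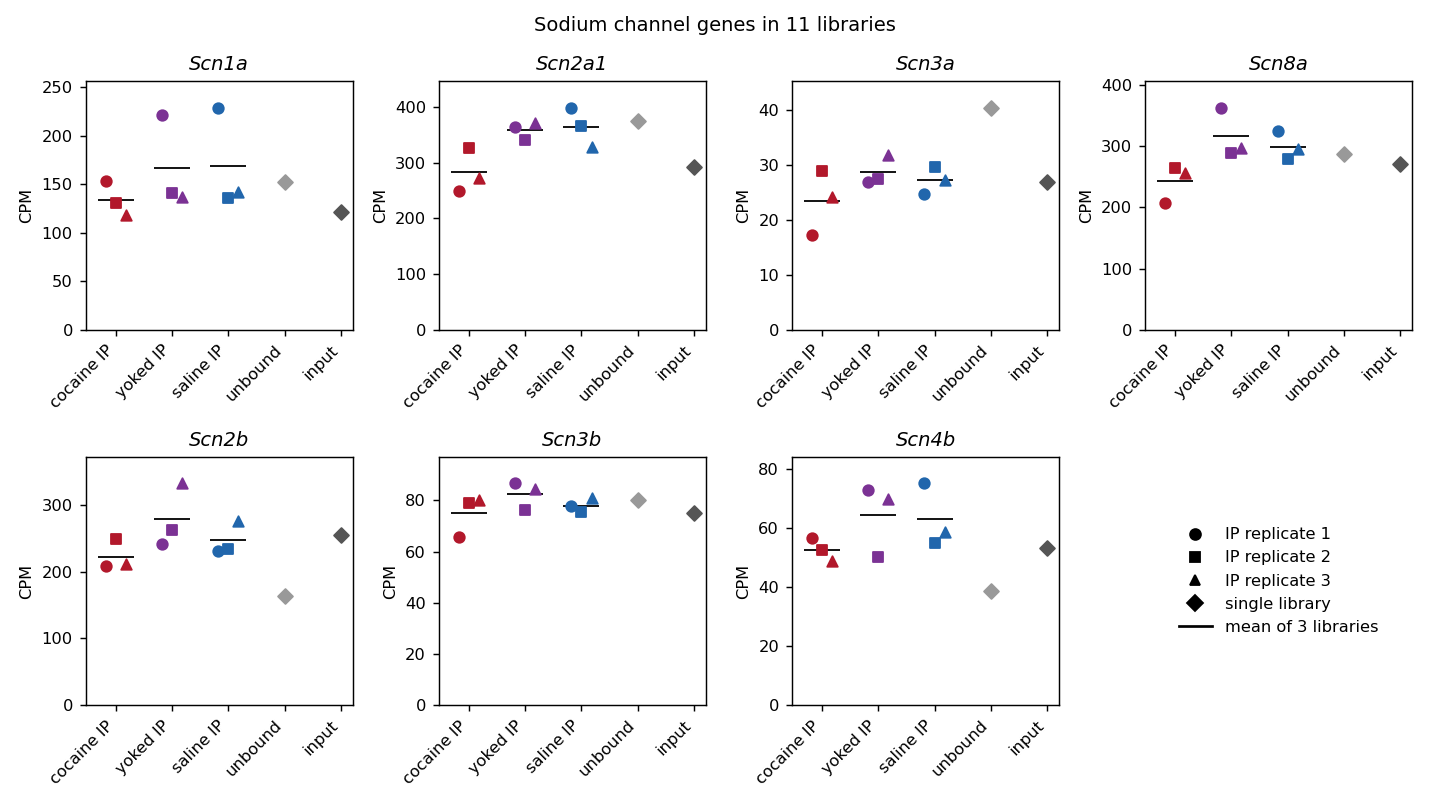
Level of each sodium channel gene in the 11 libraries, in CPM on a linear axis from 0, by group, with the replicate number as the symbol and the mean of 3 libraries as a line. Scn1a is highest in the circles of replicate 1 in every IP group, and the cocaine libraries of Scn2a1 and Scn8a lie below those of the yoked and saline groups.

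Scn2a1, the most counted pore gene, had 249, 327 and 271 CPM in cocaine IP libraries 1, 2 and 3, 364, 340 and 370.1 CPM in yoked IP libraries, and 398, 366 and 328 CPM in saline IP libraries. Its unbound level was 375 CPM and its input level 292 CPM. All 3 cocaine libraries lay below all 6 others from the IP, although cocaine library 2 and saline library 3 were nearly equal. Scn8a, the pore gene of the distal initial segment and of mature nodes, had 207, 264.5 and 257 CPM in cocaine IP libraries, 363, 289 and 296 CPM in yoked IP libraries, and 325, 278.5 and 295 CPM in saline IP libraries. Unbound RNA held 287 CPM of Scn8a and input RNA 271 CPM. Here too the 3 cocaine libraries were the lowest 3 of the 9, with the widest gap in library 1.

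Scn1a had 153, 130.5 and 118 CPM in cocaine IP libraries, 221, 141 and 137 CPM in yoked IP libraries, and 229, 135 and 142 CPM in saline IP libraries. It stood at 152 CPM in the unbound and 121 CPM in the input library. In each treatment library 1 was the highest, and the cocaine range overlapped the other IP groups. Scn3a, the pore gene of the developing brain, had 17.2, 28.9 and 24.2 CPM in cocaine IP libraries, 26.9, 27.5 and 31.9 CPM in yoked IP libraries, and 24.8, 29.7 and 27.2 CPM in saline IP libraries. Its unbound level of 40.5 CPM was the highest of all 11 libraries, and its input level was 26.9 CPM. The groups overlapped, and library 1 was the lowest in each.

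Scn2b had 208, 249 and 211 CPM in cocaine IP libraries, 242, 263 and 332 CPM in yoked IP libraries, and 231, 233.5 and 275 CPM in saline IP libraries. Unbound RNA held 163 CPM, the lowest of all 11 libraries, and input RNA 255 CPM. The cocaine values overlapped those of both other IP groups. Scn3b, whose beta subunit binds the pore without a disulfide bond, had 65.8, 78.9 and 80.1 CPM in cocaine IP libraries, 86.6, 76.1 and 84.5 CPM in yoked IP libraries, and 77.8, 75.3 and 80.8 CPM in saline IP libraries. With 80.2 CPM in the unbound and 74.9 CPM in the input library, it varied least of the 7 genes. The SD of its log2 level over the 9 IP libraries was 0.11, against a median of 0.28 over 8798 genes of at least 10 CPM. Scn4b, whose tail is linked to the resurgent current of fast-firing neurons, had 56.7, 52.5 and 49.0 CPM in cocaine IP libraries, 72.9, 50.1 and 69.9 CPM in yoked IP libraries, and 75.2, 55.0 and 58.8 CPM in saline IP libraries. At 38.8 CPM, unbound RNA again held the lowest level of all 11 libraries, and input RNA held 53.4 CPM.

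Cocaine against saline self-administration asks whether drug taking altered the translated RNA of these neurons. No sodium channel gene passed the test, and nor did any other gene: edgeR's quasi-likelihood test called 0 of 16417 genes at an adjusted p under 0.05 (0%), with 168 genes at an unadjusted p under 0.05, and DESeq2 and limma also called 0. The log2 fold change of all 4 pore genes and all 3 beta genes was below 0, with a median of -0.24, while 46.6% of all genes tested were below 0. Scn2a1 stood at -0.35 ± 0.16 (SE), 0.784-fold, and Scn1a at -0.32 ± 0.27. Scn8a followed at -0.29 ± 0.17, Scn4b at -0.24 ± 0.19, Scn3a at -0.20 ± 0.20, Scn2b at -0.13 ± 0.17 and Scn3b at -0.04 ± 0.14, all with an edgeR adjusted p of 1. Scn2a1 and Scn8a were the members whose 3 cocaine libraries lay below the 3 saline libraries without overlap, as did 2.66% of all genes tested. No member lay above without overlap, as 2.78% of all genes did.

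Cocaine against yoked mice shares the cocaine libraries with the comparison above, so the values are set side by side and not counted as further support. The edgeR test called 0 of 16417 genes (0%), with 182 at an unadjusted p under 0.05 and 0 by DESeq2 and limma. Scn8a stood at -0.36 ± 0.17, 0.778-fold, Scn2a1 at -0.33 ± 0.16, Scn2b at -0.31 ± 0.17 and Scn1a at -0.30 ± 0.27. Scn3a stood at -0.28 ± 0.20, Scn4b at -0.27 ± 0.19 and Scn3b at -0.12 ± 0.14, all with an edgeR adjusted p of 0.972. All 7 values were again below 0, with a median of -0.30, against 48.5% of all genes. With the number as a block, Scn8a stood at -0.36 ± 0.14 and Scn2a1 at -0.33 ± 0.13. The 7 edgeR adjusted p-values ran from 0.193 to 0.601, again with 0 of 16417 genes called. Scn2a1 and Scn8a lay below the yoked libraries without overlap, as did 2.92% of all genes, and no member lay above, as 2.75% did.

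No marker gene was called in these comparisons either. In cocaine over saline mice 9 of 10 layer 5 pyramidal tract markers were below 0 (median -0.27), with summed levels of 531.6 to 934 CPM in cocaine and 613 to 1125 CPM in saline IP libraries. Of the 10 interneuron markers 9 were above 0 (median 0.31), with sums of 598 to 1094 CPM in cocaine and 558.5 to 977 CPM in saline IP libraries. All 8 oligodendrocyte markers were above 0 (median 0.26), at 671 to 1770 CPM in cocaine and 575 to 1619 CPM in saline IP libraries. In cocaine over yoked mice 7 of 10 layer 5 markers were below 0 (median -0.18) and 7 of 10 interneuron markers above 0 (median 0.15). Of the marker lists compared, the 8 endothelial and mural markers separated cocaine from saline mice, summing to 15.97, 18.1 and 16.4 CPM in cocaine and 22.6, 22.9 and 22.6 CPM in saline IP libraries, with 8 of 8 below 0 (median -0.64). In yoked IP libraries they summed to 25.6, 22.2 and 16.6 CPM, overlapping the cocaine range. The 8 astrocyte markers summed to 565, 2154 and 1829 CPM in cocaine IP libraries 1, 2 and 3, against 1021, 2477 and 2575 CPM in yoked and 745, 2124 and 2266 CPM in saline IP libraries. Their sum was thus lower in cocaine than in yoked mice within every number, although 4 of 8 fitted values were above 0 and 4 below (median 0.01). None of these markers was at 0 in any library, and their part in the values of the sodium channel genes was not tested.

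For the pore genes the sizes depended on library 1. Scn8a in cocaine over yoked mice was -0.81 within number 1, -0.13 within number 2 and -0.21 within number 3 on the log2 scale. Over saline mice, Scn2a1 was -0.68 within number 1, -0.16 within number 2 and -0.27 within number 3, and Scn8a was -0.65, -0.07 and -0.20 in the same order. The pore genes were lower in cocaine mice within every number over saline, but by little within number 2. Scn2b in cocaine over yoked mice was instead lowest within number 3, at -0.22 within number 1, -0.08 within number 2 and -0.66 within number 3. Without all libraries numbered 1, the cocaine over saline value was -0.20 ± 0.12 for Scn2a1, -0.12 ± 0.11 for Scn8a, -0.14 ± 0.11 for Scn1a and -0.09 ± 0.14 for Scn3a, and Scn3b turned to 0.04 ± 0.11. Over yoked mice, the same 6 libraries gave -0.23 ± 0.12 for Scn2a1 and -0.15 ± 0.11 for Scn8a, whereas Scn2b stood at -0.35 ± 0.13 and Scn3b at 0.01 ± 0.11.

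**Figure D2:**
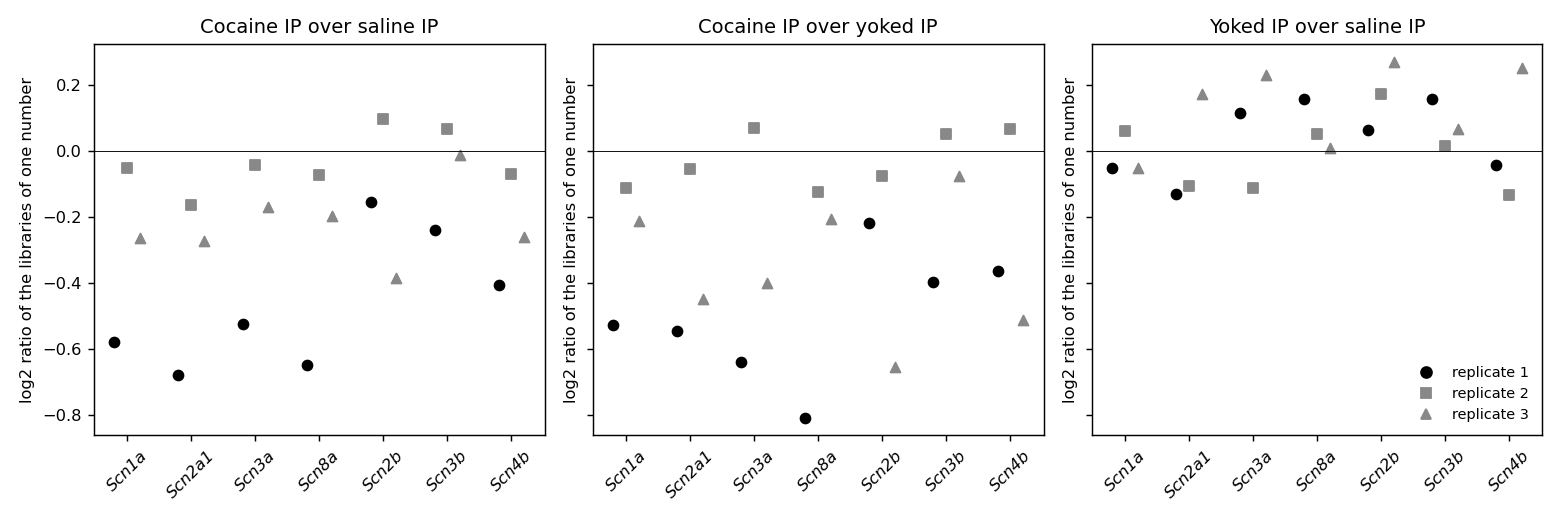
Log2 ratio of the 2 libraries that share a replicate number, for each sodium channel gene and each pair of treatments, with number 1 in black and numbers 2 and 3 in grey. In both cocaine panels the pore genes lie lowest in number 1, down to -0.81 for Scn8a over yoked mice, while the yoked over saline ratios lie on both sides of 0.

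Yoked against saline mice gave no call for any sodium channel gene, and a shift of the family as a whole was not tested. The test in edgeR called 0 of 16417 genes (0%), with 66 at an unadjusted p under 0.05 and 0 by DESeq2 and limma. Of the 7 genes, 5 were above 0 and 2 below, from -0.03 ± 0.16 for Scn2a1 to 0.18 ± 0.17 for Scn2b, each with an edgeR adjusted p of 1. Their median was 0.08, while 49.1% of all genes tested were below 0. No gene of the 7 separated the groups, whereas 2.1% of all genes lay above and 2.12% below without overlap. A test over all 3 treatments at once also called 0 genes (0%), with 79 at an unadjusted p under 0.05.

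Replicate number was the larger source of difference, and it moved the sodium channel genes in different directions. Between IP libraries numbered 1 and those numbered 2 or 3, with treatment in the fit, edgeR called 9083 of 16417 genes (55.3%), of which 27.6% of all genes were higher and 27.7% lower in number 1. Scn1a rose 1.48-fold in number 1, at a log2 difference of 0.57 ± 0.10 (edgeR adjusted p = 0.000334). Its 3 libraries numbered 1 held 153 to 229 CPM and lay above the 6 others, at 118 to 142 CPM, without overlap, as did 22.5% of all genes. No member lay below without overlap, as 23.9% of all genes did. Scn4b rose by 0.28 ± 0.11 (edgeR adjusted p = 0.0363), and Scn3a fell by 0.32 on the log2 scale, with an SE of 0.12 (edgeR adjusted p = 0.042). Scn2a1 at -0.01 ± 0.11, Scn8a at 0.06 ± 0.12, Scn2b at -0.19 ± 0.11 and Scn3b at -0.05 ± 0.10 did not pass, with edgeR adjusted p-values of 0.147 to 0.972. So 3 of 7 members were called beside 55.3% of all genes, which for so few genes is near the background.

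Among these 3 calls only that of Scn1a held under every alternative tried. For Scn1a, leaving out single libraries gave 0.50 to 0.70. Scn3a kept its call only without yoked library 1 or yoked library 2, lost it without any of the other 7, and stood at -0.17 (edgeR adjusted p = 0.249) without cocaine library 1. Scn4b kept its call without cocaine library 1, cocaine library 2 or yoked library 3 and lost it without any of the other 6, standing at 0.23 (edgeR adjusted p = 0.197) without saline library 1 and at 0.23 (edgeR adjusted p = 0.109) without yoked library 2. Without cocaine library 1, Scn8a was called higher in number 1, at 0.25 ± 0.09 (edgeR adjusted p = 0.0264). Between numbers 3 and 2, edgeR called 0 of 16417 genes (0%), with 320 at an unadjusted p under 0.05, 8 by DESeq2 and 1 by limma. No sodium channel gene was among them, with values from -0.11 ± 0.13 for Scn2a1 to 0.15 ± 0.13 for Scn4b.

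The size of the number effect also varied with treatment. For Scn2a1, library 1 minus the mean of libraries 2 and 3 was -0.26 in cocaine, 0.04 in yoked and 0.20 in saline mice, on the log2 scale. For Scn8a it was -0.33 in cocaine, 0.31 in yoked and 0.18 in saline mice. Scn1a was above 0 in all 3, at 0.30 in cocaine, 0.67 in yoked and 0.72 in saline mice. With 1 library of number 1 per treatment, these differences between treatments could not be tested.

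Shares within the family set each gene against its relatives in the same library and do not depend on library scaling, though they do on the exon length used. Scn1a made up 26.4% to 28.1% of the summed pore level per kb in the libraries numbered 1 and 19.1% to 21% in those numbered 2 or 3. Scn2a1 made up 40.8% to 44% in number 1 and 44.6% to 49.3% in numbers 2 and 3, and Scn3a 2.57% to 2.82% and 3.53% to 3.93%. These 3 shares separated the numbers without overlap, whereas that of Scn8a, at 26.3% to 30% in number 1 and 27.6% to 31% in the others, did not. Among the 3 beta genes, Scn4b made up 16.1% to 18.4% in number 1 and 12.1% to 14.2% in numbers 2 and 3. Scn2b, at 60.6% to 63.2% in number 1 and 62.1% to 68.5% in the others, and Scn3b, at 20.6% to 22.4% and 18% to 24.3%, overlapped.

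**Figure D3:**
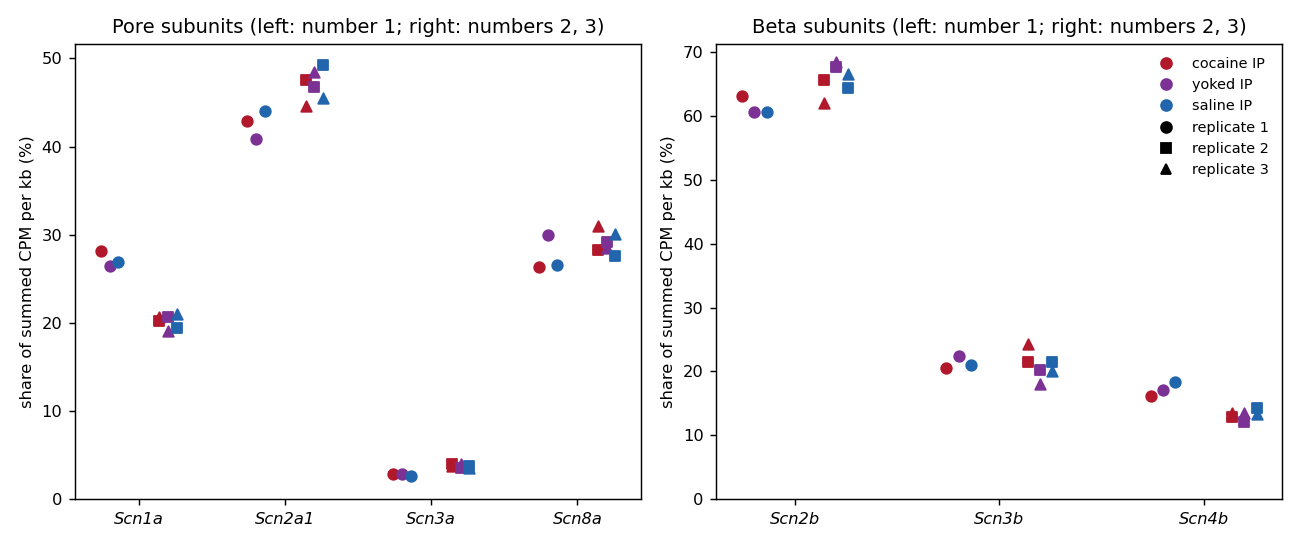
Share of each gene in the summed CPM per kb of its family, in percent, for the 9 IP libraries, with number 1 to the left and numbers 2 and 3 to the right of each gene, colours for treatment and symbols for number. Scn1a and Scn4b take a larger share in number 1, and Scn2a1 and Scn3a a smaller one.

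Median fold changes of all genes differed by transcript length between replicate numbers and, without a test, between treatments. The pore genes have 8.53 to 12.3 kb of exon and the beta genes 4.52 to 4.98 kb. In number 1 against numbers 2 and 3, the median log2 difference ran from 0.69 for genes of up to 1 kb to -0.58 for genes over 8 kb. In cocaine over saline mice the same medians were 0.32 and -0.21, and in cocaine over yoked mice 0.46 and -0.25. In yoked over saline mice they were -0.14 and 0.04. The pore genes all fall in the class over 8 kb, and their cocaine over saline values ran from -0.35 to -0.20 beside its median of -0.21. The beta genes fall in the class of 4 to 8 kb. Their cocaine over saline values ran from -0.24 to -0.04 beside its median of -0.07. Over yoked mice they ran from -0.31 to -0.12 beside a median of -0.10.

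With a smooth trend on length removed from each library, limma gave cocaine over saline values of -0.08 ± 0.42 for Scn1a, -0.14 ± 0.23 for Scn2a1, -0.02 ± 0.28 for Scn8a and -0.17 ± 0.22 for Scn4b, all with a limma adjusted p of 1. With the replicate number also as a block, these values stayed the same and their SEs were 0.08, 0.09, 0.08 and 0.10. The limma adjusted p-values of these 4 genes were then 0.606 to 0.96. The median of the 7 members was -0.08, against -0.23 from limma without the trend removed. Over yoked mice it was -0.07, against -0.30. The pore genes moved there from between -0.36 and -0.27 to between -0.08 and -0.02. The beta genes kept more of their values. Scn2b stood at -0.24 against -0.30, Scn4b at -0.17 against -0.25 and Scn3b at -0.07 against -0.12. By replicate number, removing the trend instead brought more calls among the members. With the trend removed, 5 of 7 genes were higher in number 1, Scn1a at 1.08 ± 0.07 (limma adjusted p = 2e-08), Scn8a at 0.67 ± 0.07 (limma adjusted p = 1.49e-06) and Scn2a1 at 0.53 ± 0.07 (limma adjusted p = 2.64e-05). Scn4b stood at 0.48 ± 0.09 (limma adjusted p = 0.000407), and Scn3a turned to 0.24 ± 0.09 (limma adjusted p = 0.0444). The direction of Scn3a by replicate number therefore depended on whether it was set against all genes or against genes of its length.

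**Figure D4:**
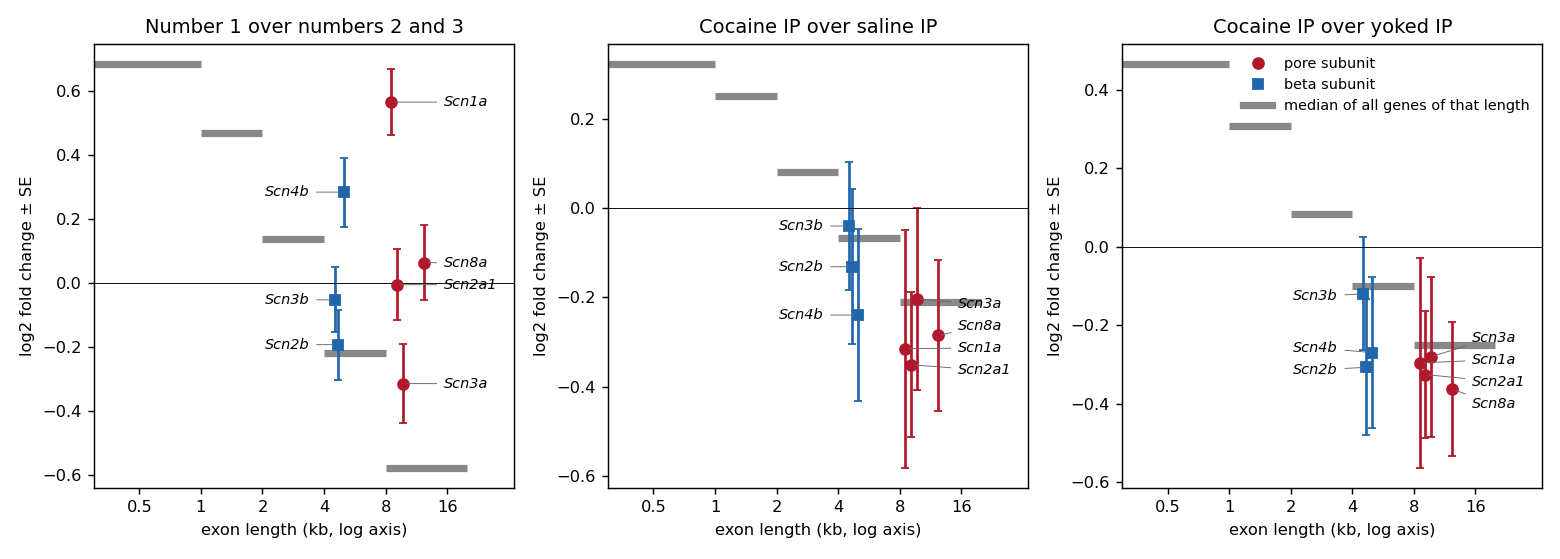
Log2 fold change with its SE for the 7 genes against exon length in kb (log axis), for number 1 over numbers 2 and 3, cocaine over saline and cocaine over yoked IP libraries, with grey bars at the median of all genes in each length class. In number 1 the pore genes lie above the grey bar of genes over 8 kb at -0.58, and in the cocaine panels they lie near it.

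Partner genes were counted over lists of 17 scaffold genes of the initial segment and node and 22 intracellular modulators of the channels. In cocaine over saline mice 0 of 17 scaffold and 0 of 22 modulator genes were called, 13 of 17 and 15 of 22 were below 0, and the medians were -0.14 and -0.09. Of all genes tested 46.6% were below 0. In cocaine over yoked mice 0 of either list were called. There 15 of 17 and 14 of 22 were below 0, with medians of -0.26 and -0.05, beside 48.5% of all genes. By replicate number, 5 scaffold genes rose and 5 fell in number 1, so that 10 of 17 were called beside 55.3% of all genes, a share near the background. The largest changes were Vcan, a matrix proteoglycan made largely by glia, which stood at -1.51 ± 0.19, the spectrin Sptbn1 at -0.89 ± 0.12, the adhesion protein contactin (Cntn1), which binds sodium channels, at 0.68 ± 0.10, and Ank2 at -0.63 ± 0.13. Their edgeR adjusted p-values ran from 1.39e-05 to 0.000672. Of the modulators 7 rose and 6 fell, so that 13 of 22 were called beside the same 55.3%, again near the background. Among them were the calmodulin gene Calm2 at 0.71 ± 0.11, the kinase gene Prkca at -0.68 ± 0.12 and Gsk3b, a kinase gene whose product is known to bind and phosphorylate Scn2a and Scn8a channels, at -0.56 ± 0.13. With the length trend removed, Ank2 turned to 0.04 and was no longer called, nor were Calm2 at 0.18, Prkca at -0.17 and Gsk3b at -0.06, while Vcan, Sptbn1 and Cntn1 kept their calls.

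The pull-down was compared with the other fractions to see whether tagged neurons hold more of these transcripts than the tissue around them. The marker sums of IP libraries numbered 2 and 3 were like those of the input, which limits what this comparison can show. A gene was called where every 1 of the 3 IP libraries passed 2-fold in the same direction, and no member was called in either comparison. Against the saline input, that rule called 0.0742% of 13478 genes higher and 0.0445% lower in saline IP libraries. Scn1a had log2 ratios of 0.92, 0.17 and 0.22 in saline IP libraries 1, 2 and 3, and Scn4b of 0.49, 0.06 and 0.13. For Scn2a1 they were 0.44, 0.34 and 0.15, for Scn8a 0.26, 0.06 and 0.11, and for Scn3b 0.05, 0.02 and 0.10. These 5 genes were above the input in every library, as were 18.9% of all genes, and 17.6% lay below in every library, with library 1 highest for Scn1a, Scn2a1, Scn8a and Scn4b. Scn3a, at -0.12, 0.16 and 0.00, and Scn2b, at -0.15, -0.11 and 0.10, lay on both sides.

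Over the cocaine unbound RNA the 4 pore genes and Scn3b lay below and Scn2b and Scn4b above. The 2-fold rule was met in the higher direction by 0.399% and in the lower by 2.21% of 13527 genes. Scn3a had ratios of -1.30, -0.56 and -0.80 in cocaine IP libraries 1, 2 and 3, Scn2a1 of -0.66, -0.27 and -0.52, and Scn8a of -0.54, -0.19 and -0.22. Scn1a, at -0.06, -0.29 and -0.41, and Scn3b, at -0.36, -0.10 and -0.06, were also below the unbound library in all 3, as were 25.7% of all genes. With scaling over all 11 libraries, Scn1a stood at 0.0119 in cocaine library 1 and Scn3b at -0.0018 in cocaine library 3. For Scn1a the place of library 1 thus depended on the scaling, and for Scn3b library 3 was level with the unbound library. Scn2b, at 0.28, 0.54 and 0.31, and Scn4b, at 0.48, 0.36 and 0.28, were above it in all 3, as were 31.8% of all genes.

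The other fractions also differed between themselves. The input held 0.65 more Scn2b and 0.46 more Scn4b than the unbound library on the log2 scale. The same difference was -0.59 for Scn3a, -0.36 for Scn2a1, -0.33 for Scn1a, -0.10 for Scn3b and -0.09 for Scn8a. The unbound library also carried 14680 CPM of the 6 nuclear noncoding RNAs against 5218 CPM in the input, and 2224 CPM of oligodendrocyte markers against 1529 CPM. It came from another treatment, had the fewest gene counts and has no replicate, so what set it apart was not tested.

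**Figure D5:**
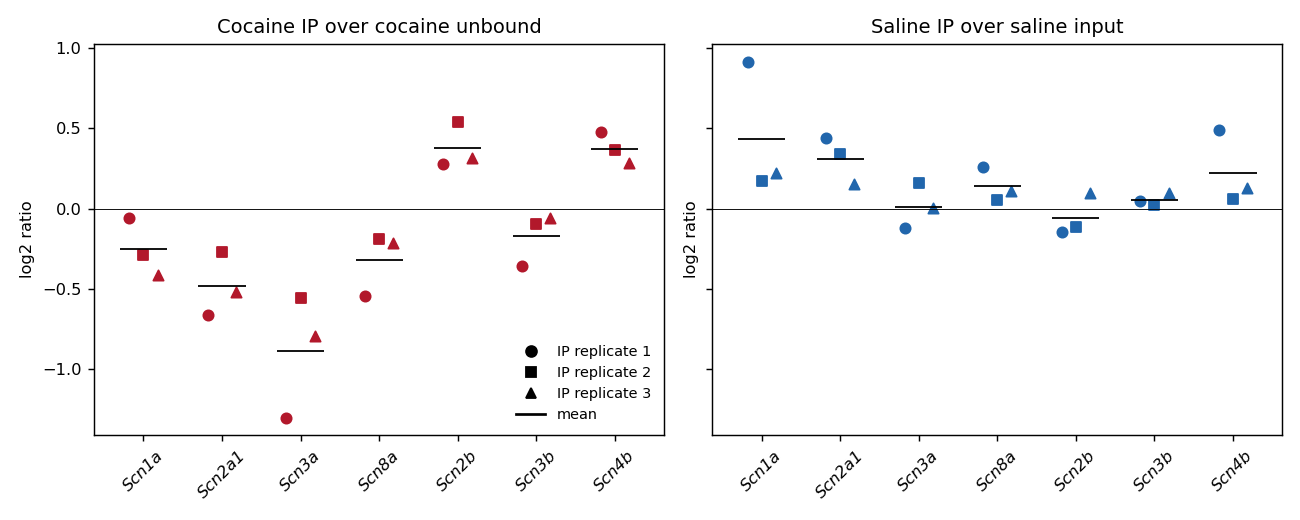
Log2 ratio of each of 3 IP libraries to the unbound library of the cocaine group (left) and to the input library of the saline group (right) for the 7 genes, with symbols for replicate number and a line at the mean. With scaling over the libraries of each comparison, the 4 pore genes lie below the unbound library in all 3 cocaine libraries and Scn2b and Scn4b above it. Scn1a lies only just below it in library 1. Over the input, Scn1a reaches 0.92 in library 1.

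The members varied together in part. Over the 11 libraries the closest pair was Scn2a1 and Scn8a, whose centred log2 profiles differed by a root mean square of 0.12, followed by Scn8a and Scn3b at 0.13. The farthest pair was Scn3a and Scn4b at 0.45. Among 8798 genes of at least 10 CPM, the profile nearest to Scn1a was that of Sel1l at 0.08, an adaptor of endoplasmic reticulum degradation, with Cntn1 and Slc20a1 next. Scn2a1 was nearest to the plasma membrane calcium pump gene Atp2b2 at 0.09, with Ero1l and B4galt6 next, and Scn8a to the semaphorin receptor gene Plxna2 at 0.06, with Herc2 and Nlgn2. Scn3a was nearest to Prune2 at 0.08, with Itga4 and Tug1. Of the beta genes, Scn2b was nearest to Hs6st1 at 0.05, with Stac2 and Fam219a, Scn3b to Adcy9 at 0.06, with Ocrl and Mon2, and Scn4b to Nt5dc3 at 0.08, with Sort1 and Ccdc3. All profiles share the same 11 libraries, with the replicate numbers and the unreplicated unbound and input libraries in them, so these likenesses are a description.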

How the data were processed

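The authors deposited raw counts of reads per gene symbol, a table for each library. The submitters' processing notes name STAR 2.0.0e, HTSeq and the build mm10. Neither the strand setting nor the annotation is given in the sources used here. Of all reads, 44.9% to 52.5% fell in genes, 28.3% to 47.0% had several positions, 6.28% to 15.5% met no gene and 1.56% to 7.34% were ambiguous. These special entries entered neither the library sizes nor any test. Intervals from counts would cover counting error only, since the counts have no molecular identifiers.

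Some genes and sequences are not reported here. The members, partner lists and tests were chosen with earlier results of these data known. The 9 IP libraries were fitted in edgeR 4.0.16 (R 4.3.3) with TMM scaling, filterByExpr, the robust quasi-likelihood test and Benjamini-Hochberg adjustment over 16417 genes at 0.05, as 3 group means, and again with replicate number added to test the numbers. Values for treatments from edgeR are from the fit of 3 group means unless a block is named. That fit leaves the differences between numbers in its SEs. For Scn1a in cocaine over saline mice the SE was 0.27 there and 0.12 with the block. In each treatment comparison of that fit, the share of genes at an unadjusted p under 0.05 was itself below 0.05. Levels in CPM are TMM-scaled over 11 libraries. Levels per kb used exon lengths of GENCODE M21, matched for 91.6% of tested genes. Ratios of IP to another fraction used TMM over 4 libraries, a prior count of 2 and a mean of at least 1 CPM, and a gene was called where all 3 libraries passed 2-fold. Likeness was the root mean square difference of centred log2 profiles. The rule named every member, its 3 nearest profiles and up to 4 genes per partner list; partner genes were named by replicate number, where some passed the threshold, and only counted by treatment. The edgeR and ratio steps were tested on simulated data with changes of 2-fold or more and no effect of replicate number. Changes as small as those of the members between treatments were not covered.

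Libraries of one replicate number carry the same index barcode in the labels and deviated together, with correlations of deviations from group means of 0.377 to 0.795 for same-number pairs, so the number was taken to pair them. Pairs of different numbers ran from -0.740 to 0.621, those of number 2 with number 3 as high as same-number pairs of 2 or of 3, so the data set apart only number 1. Of 55 library pairs, 0 held identical counts. Alternatives were DESeq2 1.42.0, RLE and upper-quartile scaling, no filter, library sizes without the ribosomal RNA precursor Rn45s, a replicate block, limma 3.58.1 with and without a length trend (loess span 0.3), and leaving out libraries.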

Additional observations from a re-analysis of the deposited data

Results flagged for a closer look

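Scn8a was the member whose level over the saline input pointed in opposite directions between treatments. On the scale of all 11 libraries, its log2 ratio to the input was -0.38, -0.03 and -0.08 in cocaine IP libraries 1, 2 and 3, all below the input. It was 0.42, 0.09 and 0.13 in yoked IP libraries and 0.27, 0.04 and 0.12 in saline IP libraries, all above it. The mean difference was -0.38 between cocaine and yoked mice and -0.31 between cocaine and saline mice. These differences over the input were not tested as such, and the comparisons share the cocaine libraries and the single input library. The members alone were searched for such a pattern, so the share of all genes that show it is not known. Since every library is divided by the same input, the pattern restates the lack of overlap given above. Cocaine libraries lay below saline libraries without overlap for 2.66% of all genes tested, and below yoked libraries for 2.92%. Libraries 2 and 3 lay within 0.13 of the input in all 3 treatments, and library 1 carried the largest distance in each.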

How the results depend on the processing

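The 3 treatment comparisons and the test over all of them called 0 genes under every alternative, the replicate block and each left-out library included. With the replicate block, Scn2a1 stood at -0.35 ± 0.13 in cocaine over saline mice (edgeR adjusted p = 0.377) and Scn8a at -0.36 ± 0.14 in cocaine over yoked mice (edgeR adjusted p = 0.193); the block changed no call. Without all libraries numbered 1, values turned direction for Scn3b in cocaine over saline (0.0398) and cocaine over yoked mice (0.0065) and for Scn2a1 in yoked over saline mice (0.024). Leaving out single libraries spanned 0 for yoked over saline in Scn1a (-0.28 to 0.26), Scn2a1 (-0.10 to 0.0405), Scn8a (-0.038 to 0.14) and Scn4b (-0.0746 to 0.17), and for cocaine over saline in Scn3b (-0.11 to 0.0452). None of these values was called.

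Number 1 against the others called 7593 to 9391 genes over all alternatives. Removing the length trend turned Scn2a1 to 0.53, Scn3a to 0.24, Scn3b to 0.0626 and Ank2 to 0.0417. Scn2a1 was 0.004 without a filter and 0.0518 against number 3 alone. Left-out libraries spanned 0 for Scn2a1 (-0.10 to 0.12), Scn8a (-0.0688 to 0.25) and Scn3b (-0.14 to 0.0559). Scn4b lost its call under DESeq2 (adjusted p = 0.0591), RLE scaling (edgeR adjusted p = 0.0577), upper-quartile scaling (edgeR adjusted p = 0.0669) and against number 3 alone (edgeR adjusted p = 0.181). Scn3a lost its call against number 2 alone (edgeR adjusted p = 0.0501) and number 3 alone (edgeR adjusted p = 0.118); the single-number comparisons were chosen after seeing the data, and use fewer libraries. Number 3 against number 2 called 8 genes under DESeq2, 8 without a filter, 1 under limma and 4 with the length trend removed, against 0 otherwise and 0 to 7 with a library left out (7 without cocaine library 1 and 3 without cocaine library 3). Left-out libraries spanned 0 there for Scn1a (-0.13 to 0.0664), Scn2a1 (-0.19 to 0.0247), Scn3a (-0.20 to 0.0881), Scn8a (-0.0497 to 0.15) and Scn2b (-0.0029 to 0.25).

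Calls over the input numbered 16 as reported, 1 at 10 CPM, 97 at 1.5-fold, 0 by edgeR over 11 libraries and 26 to 68 with a library left out. Over the unbound library they numbered 353 as reported, 126, 1385 and 10 in the same order, and 428 to 635 with a library left out, since fewer libraries then had to pass. By coding length, also chosen after seeing the data, Scn1a made up on average 23.4% of the pore level in number 1 and 17.2% in the others, Scn2a1 39.1% and 42.8%, and Scn8a 34.7% and 36.3%. The causes of these shifts were not tested.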

Other observations

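Among further sodium channel genes, Scn7a stood at 2.24 to 5.95 CPM and the sensory neuron gene Scn9a at 1.31 to 4.62 CPM over the 11 libraries. Scn7a rose by 0.56 ± 0.19 in number 1 (edgeR adjusted p = 0.0225). Scn9a met the 2-fold rule against the unbound library, at -1.54, -1.84 and -1.14 in cocaine IP libraries 1, 2 and 3, as did 2.21% of all genes. Scn4a, Scn10a and Scn11a held 0 to 18 counts per library and were not tested.

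The summed pore level was 64.0, 75.7 and 67.1 CPM per kb in cocaine IP libraries, 98.2, 80.2 and 84.2 in yoked IP libraries, and 99.7, 81.8 and 79.5 in saline IP libraries. The 3 cocaine sums were the lowest of the 9. Scn2a1 and Scn8a make up most of this sum, so it is not separate from their values above. All genes over 8 kb had a median log2 fold change of -0.21 in cocaine over saline and -0.25 in cocaine over yoked mice. The summed level of the 3 beta genes was 70.5, 81.5 and 72.8 CPM per kb in cocaine IP libraries, 85.7, 83.3 and 104 in yoked IP libraries, and 81.9, 77.9 and 88.8 in saline IP libraries, with cocaine and saline values overlapping.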
